A study of Mus musculus with 16 samples.

Results

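The subunits of the NMDA receptor, the glutamate-gated calcium channel of the synapse, were followed in cerebellum and in the remaining brain of mice lacking a brain form of PGC1α. The 7 genes are Grin1, Grin2a, Grin2b, Grin2c, Grin2d, Grin3a and Grin3b, and every probe set (a small group of probes that reads 1 transcript) was taken whose single gene symbol in the platform annotation is one of them. That gave 12 probe sets of 6 genes among 45101 probe sets, of which 34958 carry a single symbol. No probe set carried the symbol Grin1 in the annotation used here, so the obligatory subunit is not among the 12. Grin2b had 4 probe sets, Grin3a had 3, Grin2d had 2, and Grin2a, Grin2c and Grin3b had 1 each.

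An NMDA receptor is a tetramer that combines the obligatory GluN1 subunit (Grin1), which binds the co-agonists glycine and D-serine, with GluN2 subunits (Grin2a to Grin2d), which bind glutamate, or with GluN3 subunits (Grin3a and Grin3b), which bind glycine. A receptor of GluN1 and GluN2 opens when glutamate and a co-agonist are bound and the membrane is depolarized enough to expel magnesium from the pore. The calcium that enters starts the signalling behind synaptic plasticity. The GluN2 subunit sets the kinetics: Grin2b is typical of the forebrain and of development, Grin2a rises as synapses mature, Grin2c is known for cerebellar granule cells, and Grin2d for brainstem and interneurons. Grin3a lowers the calcium permeability of the receptor, and Grin3b is best known from motor neurons.

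Expression had been profiled on Affymetrix arrays from 8 groups of 2 arrays, one group for each combination of genotype, brain part and sex, giving 16 arrays in all. KO mice were homozygous for a short CRISPR/Cas9 deletion placed just after the start codon in the SINE exon (a short interspersed nuclear element) of the brain-specific Pgc1α fusion transcript, from 1 founder line made in C57BL/6J embryos, and WT mice were their age-matched littermates. Each brain was freed of brain stem remnants by gross dissection and divided into the cerebellum (cb) and the rest of brain (Br). The profiling was made to look for molecular changes in the cerebellum that go with motor deficits, with the rest of brain as a control. The groups were thus KO cerebellum and WT cerebellum, and KO rest of brain and WT rest of brain, each of females and of males, all untreated and none carrying another allele according to the sources used here. Their age is not given in the sources used here. The rest of brain pools forebrain, midbrain and whatever brain stem was not removed, and whether equally numbered arrays of both parts were made from the same animal is not given in the labels. In such bulk tissue, fewer cells of a type and less RNA per cell cannot be told apart.

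The deposited table holds 5 distinct numbers and no intensities, and these were read as detection levels from 2 to -2. Level 2 was taken as detected, level 1 as marginal and the levels from 0 down as undetected. This reading is stated in none of the sources, and what the negative levels mean is not settled. None of the 12 subunit probe sets had a negative level on any array. A call says only whether a transcript was seen, so tissues in which a probe set was detected throughout may still differ in its level, and no fold change could be computed.

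Each array detected 25517 to 28155 probe sets, with a median of 26695 for cerebellum arrays and 27054 for rest-of-brain arrays. The sex labels matched the calls, since both Eif2s3y probe sets (Y-linked) were detected on 0 of 8 female and 8 of 8 male arrays, and 2 of the 3 Xist probe sets on 8 of 8 and 0 of 8, while Xist 1436936_s_at was detected on all arrays of both sexes. All 5 Ppargc1a probe sets were detected on every KO and WT array, which does not check the genotype because the deletion was placed to disrupt a reading frame and not to remove the transcript. Some markers followed the part labels: Zic2 and Barhl2, granule cell transcription factors, were detected on 8 of 8 cerebellum and 0 of 8 rest-of-brain arrays, and Tbr1, a cortical factor, on 0 of 8 cerebellum and 8 of 8 rest-of-brain arrays. Others did not separate the parts, as 10 of the 21 granule cell and 8 of the 23 cortex and hippocampus probe sets were detected on every array. Prox1 1421336_at, of the cortex and hippocampus list, was detected on 7 of 8 cerebellum and 3 of 8 rest-of-brain arrays. An array of each part lay near the other part in its markers. The cerebellum array WT female 2 detected 71.4% of 21 granule cell probe sets, the lowest of the cerebellum, and 65.2% of 23 cortex and hippocampus probe sets, the highest of the cerebellum. The rest-of-brain array KO female 1 detected 76.2% of the granule cell and 92% of 25 Purkinje cell probe sets, the highest of the rest of brain, and 73.9% of the cortex and hippocampus probe sets, a lowest share it had in common with WT male 2. Marker lists of astrocytes (81.5% to 85.2% of 27 probe sets on cerebellum arrays, 85.2% on rest-of-brain arrays), oligodendrocytes (89.5% to 94.7% of 19, against 94.7%) and microglia (63.6% to 72.7% of 11, against 72.7% to 81.8%) had ranges that met at their ends.

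Across the family, 4 of the 12 probe sets were detected on all 16 arrays, 6 on some arrays and 2 on none. Of all probe sets, 48% were detected on every array, 25% on some and 27% on none, and of those with a single symbol 52.5%, 23.1% and 24.4%. Intermittent calls were thus the most frequent kind among the subunits, a description of 12 probe sets that was not tested. At least 1 probe set of Grin2b, Grin2c and Grin3a was detected on each of the 16 arrays, while Grin2d reached 11, Grin3b 3 and Grin2a 1. Each cerebellum array detected 3 to 5 of the 6 genes, and each rest-of-brain array likewise 3 to 5.

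**Figure D1:**
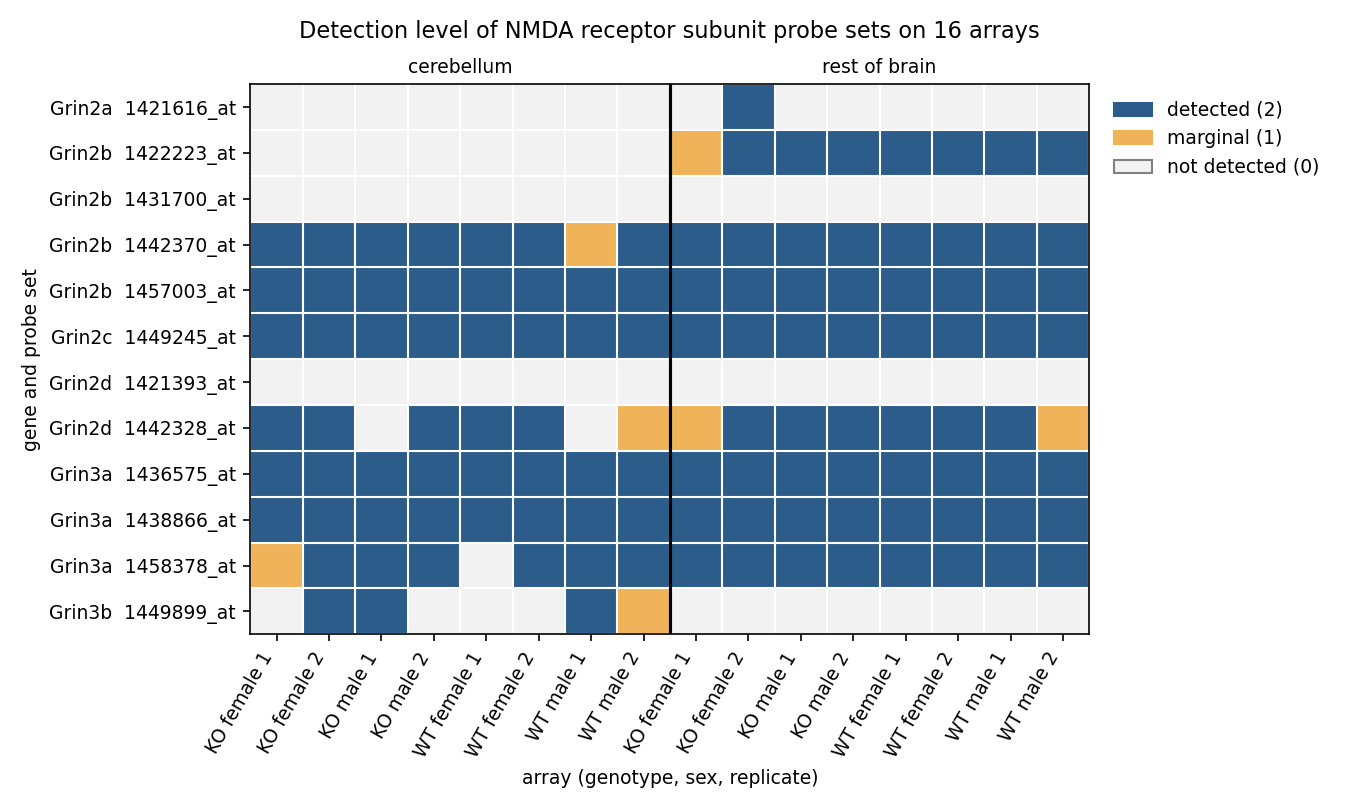
Detection level (colour: detected, marginal or not detected) of the 12 NMDA receptor subunit probe sets (rows) on the 16 arrays (columns, cerebellum left of the rest of brain, KO left of WT). Grin2b 1422223_at is undetected on all 8 cerebellum arrays and detected or marginal on all 8 rest-of-brain arrays, and Grin3b is detected on cerebellum arrays only.

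Grin2a, the GluN2 subunit of mature synapses, was almost without signal in the annotated probe set. Its single probe set 1421616_at was at level 0 on all 8 cerebellum arrays and on 7 of 8 rest-of-brain arrays, and at level 2 on the rest-of-brain array KO female 2. Another probe set that the study's own gene lists assign to Grin2a, 1434638_at, which is unnamed in the annotation and lies outside the 12, was detected on 16 of 16 arrays. In the same way 1437968_at, assigned to Grin1 by the study's lists, was detected on 16 of 16 arrays. Both were chosen for mention after their values were seen and enter none of the counts.

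Grin2b, the GluN2 subunit of the forebrain, gave 3 different pictures from its 4 probe sets. The probe set 1457003_at was at level 2 on all 16 arrays, and 1442370_at was at level 2 on all but the cerebellum array WT male 1, where it was at level 1. The probe set 1431700_at was at level 0 on all 16 arrays. The fourth, 1422223_at, followed the brain part. It was at level 0 on the cerebellum arrays KO female 1, KO female 2, KO male 1, KO male 2, WT female 1, WT female 2, WT male 1 and WT male 2. On the rest-of-brain arrays it was at level 1 on KO female 1 and at level 2 on KO female 2, both KO males, both WT females and both WT males. It was thus detected on 0 of 8 cerebellum and 7 of 8 rest-of-brain arrays. Detection on no cerebellum array and at least 7 rest-of-brain arrays was shown by 174 of all 45101 probe sets (0.386%). By contrast, 3 of the 4 Grin2b probe sets showed the same call in both parts on nearly every array.

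Such disagreement between probe sets of 1 gene was common on this array. Of 1952 genes with at least 4 probe sets, 804 (41.2%) had one detected on every array and another on none, and 500 (25.6%) had, like Grin2b, a further one detected on some arrays. Among 9012 genes with at least 2 probe sets, 24% had one on every array and another on none. Of 145 named probe sets detected on no cerebellum array and at least 7 rest-of-brain arrays, 48 (33.1%) belonged to a gene with another probe set detected on every array, as Grin2b 1422223_at did. The call of a single Grin2b probe set therefore describes that probe set, and the probe sets of a gene can read different parts or forms of its transcript. Which part of Grin2b each one reads is not given in the sources used here.

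Grin2c, the GluN2 subunit that marks cerebellar granule cells, was detected on every array. Its probe set 1449245_at was at level 2 on all 8 cerebellum and all 8 rest-of-brain arrays, of both genotypes and sexes. The calls carry no further information on how much more or less Grin2c one part held than the other. The granule cell list as a whole was detected at 71.4% to 100% on the cerebellum arrays and at 47.6% to 76.2% on the rest-of-brain arrays, and several genes of that list are known from other brain regions too.

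Grin2d, the subunit of brainstem and interneurons, was intermittent in both parts. Its probe set 1442328_at was at level 2 on 5 of 8 cerebellum arrays (KO female 1, KO female 2, KO male 2, WT female 1 and WT female 2), at level 1 on WT male 2 and at level 0 on KO male 1 and WT male 1. In the rest of brain it was at level 2 on 6 of 8 arrays and at level 1 on KO female 1 and WT male 2. Levels 1 and 2 occurred in both parts, and the 2 arrays at level 0 were both of male cerebellum. The other Grin2d probe set, 1421393_at, was at level 0 on all 16 arrays.

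Grin3a, the glycine-binding GluN3 subunit that reduces calcium entry, was detected throughout by 2 of its 3 probe sets, 1436575_at and 1438866_at, on all 16 arrays. The third, 1458378_at, was at level 2 on 6 of 8 cerebellum arrays and on 8 of 8 rest-of-brain arrays. The 2 cerebellum arrays that fell short were KO female 1 at level 1 and WT female 1 at level 0, both female replicates of number 1.

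Grin3b, the GluN3 subunit of motor neurons, was the one member detected in the cerebellum and not in the rest of brain. Its probe set 1449899_at was at level 2 on the cerebellum arrays KO female 2, KO male 1 and WT male 1, at level 1 on WT male 2 and at level 0 on KO female 1, KO male 2, WT female 1 and WT female 2. It was at level 0 on all 8 rest-of-brain arrays. Calls within the cerebellum were thus split, and both brain parts held arrays at level 0.

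The comparison of the cerebellum with the rest of brain asked whether a subunit was seen more often in one part. For every probe set, the numbers of arrays with and without detection were compared by a two-sided Fisher's exact test, and p-values were adjusted over all 45101 probe sets by the Benjamini-Hochberg method. With 8 against 8 arrays the smallest p this test can give is 0.000155. After adjustment 0 of the 12 subunit probe sets passed, as did 0 of all probe sets (0%). At an unadjusted p under 0.05, 1 of the 12 did, against 1247 of all probe sets (2.76%). The adjusted values are high across the table because only 140 probe sets were detected on all arrays of one part and none of the other, and all of these share an adjusted p of 0.0501.

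The 1 subunit probe set below the unadjusted threshold was Grin2b 1422223_at. It was detected on 0 of 8 cerebellum and 7 of 8 rest-of-brain arrays (Fisher's exact test p = 0.0014, adjusted p = 0.161). Such a pattern, none of the cerebellum arrays and at least 7 of the rest of brain, was shown by 174 probe sets (0.386%). Adjusted over the 3873 probe sets whose number of detecting arrays allowed a p under 0.05, a choice that does not look at the brain part, the same exact p gave an adjusted value of 0.0138, and 662 of the 3873 (17.1%) passed. Of the 12 subunit probe sets, 2 were among the 3873, Grin2b 1422223_at and Grin2d 1442328_at. The call of Grin2b thus rests on which probe sets are adjusted for. Without the rest-of-brain array KO female 1, which was at level 1, it was 0 of 8 cerebellum against 7 of 7 rest-of-brain arrays, with an adjusted p of 0.0464 over all probe sets in the exact test. That leaves out the only rest-of-brain array that did not detect it, so this value is a description.

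The Grin2b difference held its direction in each genotype and sex. Among KO arrays 1422223_at was detected on 0 of 4 cerebellum and 3 of 4 rest-of-brain arrays (exact p = 0.143), and among WT arrays on 0 of 4 and 4 of 4 (exact p = 0.0286, the smallest that 4 against 4 arrays can give). Among females it was detected on 0 of 4 cerebellum and 3 of 4 rest-of-brain arrays (exact p = 0.143), and among males on 0 of 4 and 4 of 4 (exact p = 0.0286). These 4 subsets share arrays and are not independent of each other or of the pooled test.

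No other subunit probe set had an exact p under 0.05 between the parts. Grin3b was detected on 3 of 8 cerebellum and 0 of 8 rest-of-brain arrays (Fisher's exact test p = 0.2, adjusted p = 1), and 487 probe sets (1.08%) were likewise detected on at least 3 cerebellum and no rest-of-brain arrays. Grin3a 1458378_at was detected on 6 of 8 cerebellum and 8 of 8 rest-of-brain arrays (exact p = 0.467). The calls of Grin3b and of this Grin3a probe set were already as unequal as their number of detecting arrays allows. A lower p was out of reach for both, so the test could not decide whether the parts differed. Grin2d 1442328_at, on 5 of 8 and 6 of 8, had an exact p of 1. The median difference in arrays over the 12 probe sets was 0, the same as the median of 0 over all probe sets.

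**Figure D2:**
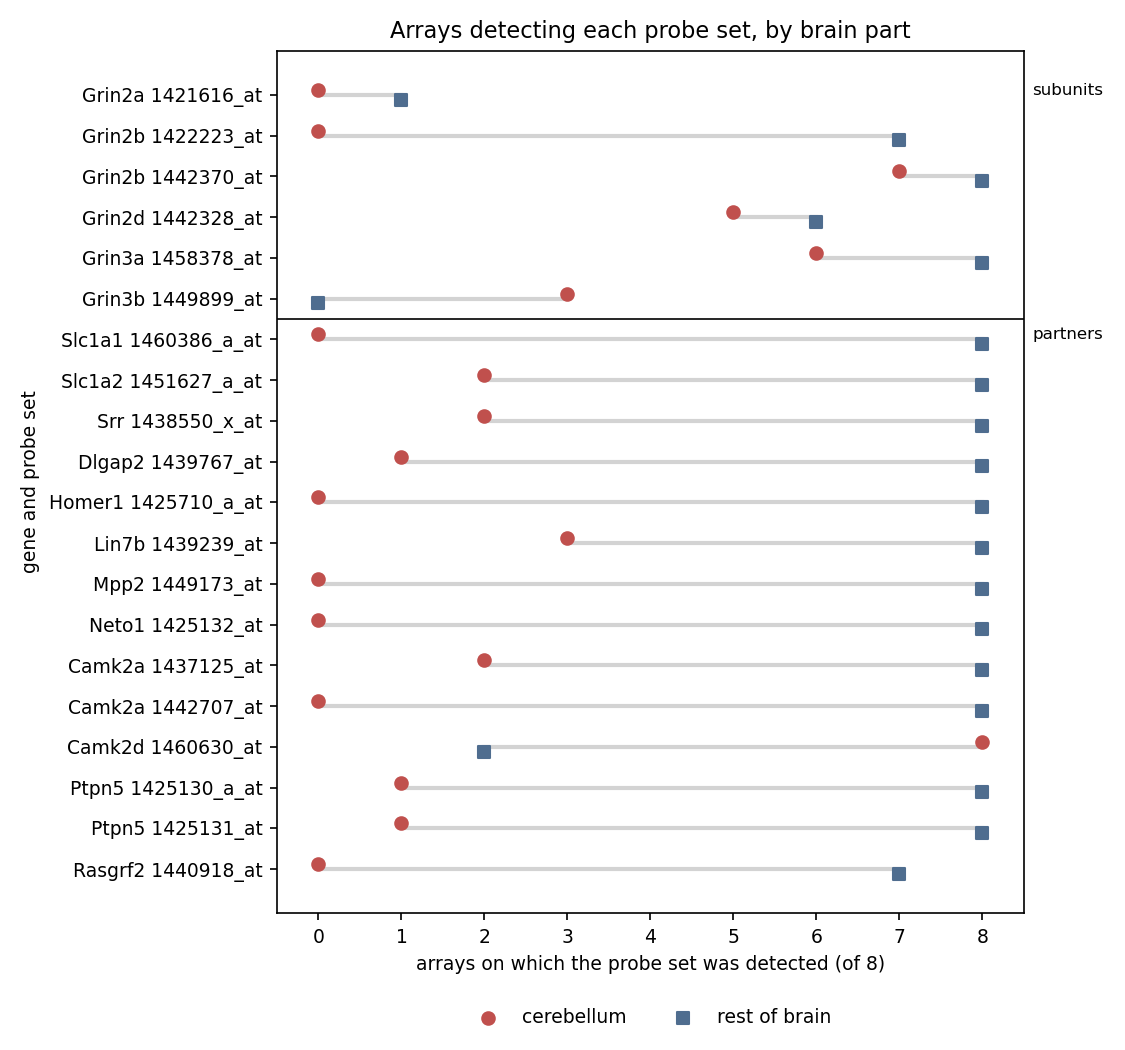
Number of arrays (x axis, of 8) on which each probe set (y axis) was detected, cerebellum as circles and rest of brain as squares, for the 6 subunit probe sets with intermittent calls and the 14 partner probe sets below an unadjusted exact p of 0.05. Of the 14 partner probe sets, 13 lie at 0 to 3 cerebellum and 7 or 8 rest-of-brain arrays, as Grin2b 1422223_at does, and Camk2d 1460630_at lies the other way round.

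The detected shares of some marker lists separated the brain parts, as the call of Grin2b 1422223_at nearly did. The 23 cortex and hippocampus probe sets were detected at 52.2% to 65.2% on the cerebellum arrays and at 73.9% to 87% on the rest-of-brain arrays. The 26 striatum probe sets were detected at 50% to 69.2% and at 76.9% to 92.3%. The 30 thalamus and midbrain probe sets, at 63.3% to 83.3% and at 76.7% to 86.7%, had ranges that overlapped. Of the cortex and hippocampus list, Tbr1 was at 0 of 8 cerebellum arrays and Prox1 1421336_at at 7 of 8. The cerebellum array WT female 2, at 65.2%, was nearest to the rest of brain and was still at level 0 for 1422223_at. The rest-of-brain array at level 1, KO female 1, was the one described above as nearest to the cerebellum in its granule and Purkinje cell shares. The rest-of-brain array WT male 2 had the same cortex and hippocampus share, 73.9%, and the lowest striatum share of its part, 76.9%. It was at level 2 for 1422223_at. The part of cell makeup in the Grin2b result was not tested.

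**Figure D3:**
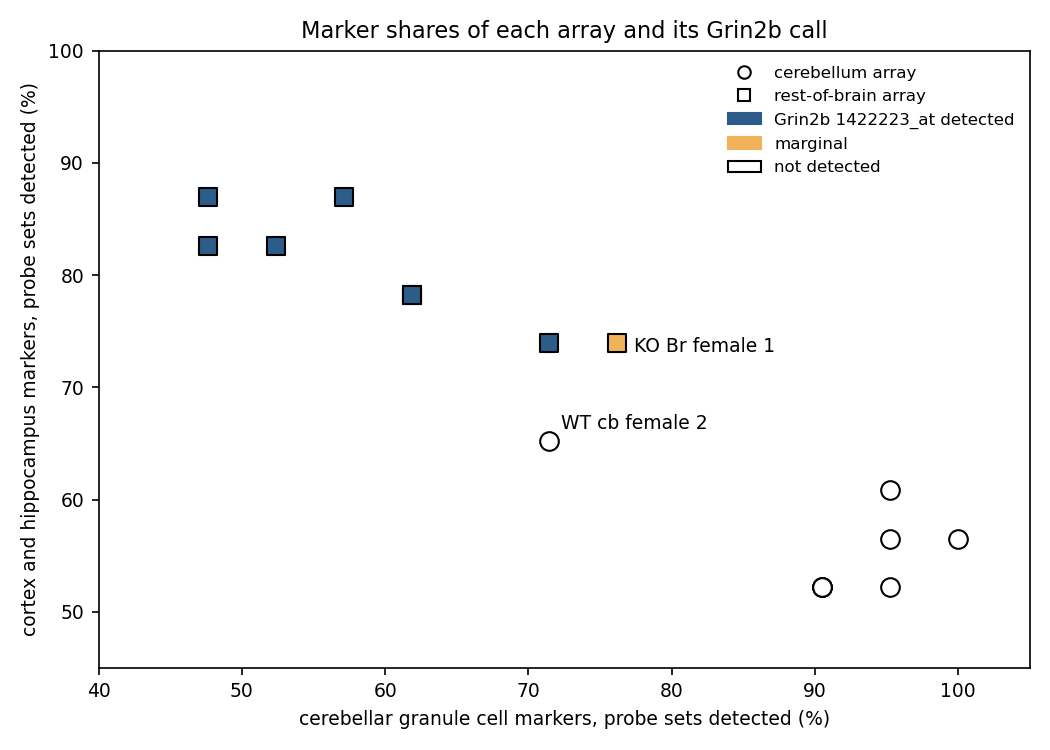
Share of 23 cortex and hippocampus probe sets (y axis, %) against share of 21 granule cell probe sets (x axis, %) detected on each of the 16 arrays, some of which coincide, with cerebellum as circles, rest of brain as squares and the fill giving the call of Grin2b 1422223_at. The 8 cerebellum arrays lie at 52.2% to 65.2% on the y axis with the probe set undetected, and the 8 rest-of-brain arrays at 73.9% to 87% with it detected or, on KO female 1, marginal.

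Markers beside the Grin3b call varied as much within the cerebellum as between the parts. The 20 hindbrain and spinal cord probe sets were detected at 10% to 65% on cerebellum arrays and at 5% to 35% on rest-of-brain arrays. The 3 arrays that detected Grin3b were at 60% (KO female 2), 10% (KO male 1) and 15% (WT male 1), and the array at 65%, KO female 1, did not detect it. Of the 10 motor neuron probe sets, 3 were detected on KO female 2, 0 on KO male 1 and 0 on WT male 1. Of that list, Chat 1440070_at and Slc5a7 1421428_at, for acetylcholine synthesis and choline uptake, were detected on no array of either part. Slc18a3, the vesicular acetylcholine transporter, was detected on 1 cerebellum array. Chat and Slc5a7 had no other probe set, so a silent probe set and an absent transcript cannot be told apart. Other genes of that list were detected: Mnx1 1460299_at on 4 of 8 cerebellum and 4 of 8 rest-of-brain arrays, Prph 1422530_at on 4 of 8 and 6 of 8, and Isl1, also a striatal gene, by 1450723_at on 0 of 8 and 5 of 8. The part of these cell types in the Grin3b calls was not tested.

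The comparison of KO with WT asked whether loss of the SINE form changed which subunits were seen. Over all arrays 0 of the 12 subunit probe sets passed Fisher's exact test, adjusted or unadjusted, against 38 of all probe sets (0.0843%) at an unadjusted p under 0.05 and 0 after adjustment. Only 2 of the 12, Grin2b 1422223_at and Grin2d 1442328_at, had a number of detecting arrays that allowed a p under 0.05. The counts of detecting arrays were close in the 2 genotypes: Grin2b 1422223_at on 3 of 8 KO and 4 of 8 WT arrays, Grin2d 1442328_at on 6 of 8 and 5 of 8, Grin3b on 2 of 8 and 1 of 8, and Grin3a 1458378_at on 7 of 8 and 7 of 8. No subunit probe set differed by more than 1 array of 8 between KO and WT. Calls cannot show whether a subunit detected in both genotypes differed in amount.

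Within the cerebellum, with 4 KO and 4 WT arrays and a smallest exact p of 0.0286, 0 of the 12 passed, against 17 of all probe sets (0.0377%) at an unadjusted p under 0.05 and 0 adjusted. However, 0 of the 12 had a number of detecting arrays that allowed a p under 0.05, so no subunit could pass. Grin2d was detected on 3 of 4 KO and 2 of 4 WT cerebellum arrays, and Grin3b on 2 of 4 and 1 of 4. Within the rest of brain 0 of the 12 passed, against 9 of all probe sets (0.02%) unadjusted and 0 adjusted. Here too 0 of the 12 could have passed, for the same reason. There Grin2b 1422223_at was detected on 3 of 4 KO and 4 of 4 WT arrays, and Grin2a on 1 of 4 and 0 of 4. In both parts the Grin2c probe set and the constant probe sets of Grin2b and Grin3a were detected on all 4 KO and all 4 WT arrays.

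By sex and brain part, with 2 KO and 2 WT arrays each, an exact test cannot go below 0.333 and none was made. No subunit probe set was detected on both arrays of one genotype and neither of the other in any of the 4 settings. Among all probe sets such patterns were rare as well. In the female cerebellum 0.743% were detected on both KO and neither WT array and 0.71% the other way, and in the male cerebellum 0.313% and 0.792%. In the female rest of brain the shares were 0.45% and 0.49%, and in the male rest of brain 0.576% and 0.448%. In the female cerebellum 1 of the 12 subunit probe sets, Grin3b, was detected on an unequal number of KO and WT arrays, against 11.3% of all probe sets, with 1 of 2 KO and 0 of 2 WT arrays. The unequal numbers were 2 of 12 in the male cerebellum (10.6% of all), 3 of 12 in the female rest of brain (9.03%) and 1 of 12 in the male rest of brain (8.93%). Among 12 probe sets, 1 more or 1 fewer moves such a share by 8.33 percentage points.

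Females and males were compared last. At an unadjusted p under 0.05 in Fisher's exact test 0 of the 12 passed, against 129 of all probe sets (0.286%), and 0 passed after adjustment. Again only 2 of the 12 could have passed, Grin2b 1422223_at and Grin2d 1442328_at. Grin2d 1442328_at was detected on 7 of 8 female and 4 of 8 male arrays (exact p = 0.282). In the cerebellum the Grin2d split was 4 of 4 female and 1 of 4 male arrays, and in the rest of brain 3 of 4 and 3 of 4. Grin3a 1458378_at was detected on 6 of 8 female and 8 of 8 male arrays (exact p = 0.467).

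The probe sets whose calls followed the intermittent members most closely were searched among 34946 probe sets of other single-symbol genes, over the same 16 arrays. Grin2b 1422223_at had 3 with the same call on 16 of 16 arrays: Pak6 (a p21-activated kinase), Crb1 (a crumbs cell-polarity protein) and Krt73 (a keratin). The next were 3110039M20Rik and Actn2, an actin cross-linker, at 15 of 16 arrays. Altogether 117 probe sets differed from it on at most 1 array. For Grin3b, 1700008O03Rik matched on 16 of 16, and Msantd3, Pax6 1437816_at (a developmental transcription factor kept in granule cells), 9130015G15Rik and Afg3l1 matched on 15 of 16, out of 32 within 1 array. Grin2d had the rarest pattern, with 0 probe sets the same and 1 within 1 array, Mc3r (a melanocortin receptor), at 15 of 16. C3ar1, Jakmip1, Kcnu1 and Pik3r5 matched Grin2d on 14 of 16. These likenesses are descriptions over 16 arrays that share dissection and brain part.

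The kind of sequence record behind a probe set was also compared. Of the 12, 5 were annotated with a RefSeq transcript (Grin2a 1421616_at, Grin2b 1422223_at, Grin2c 1449245_at, Grin2d 1421393_at and Grin3b 1449899_at), and these were detected on 1, 7, 16, 0 and 3 of the 16 arrays in that order. The 7 annotated with another record were detected on 0, 15 and 16 arrays (Grin2b), 11 (Grin2d) and 14, 16 and 16 (Grin3a). Thus 1 of 5 and 3 of 7 were detected on every array, against 50.1% of 6109 and 52.9% of 26838 such probe sets on the whole array. The Grin2b and Grin2d genes each held probe sets of both kinds with different calls, and for Grin2d the one of the other record was the one detected.

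The partners of the receptor were described from 4 lists, of scaffolds, signalling enzymes, co-agonist supply and glutamate release and uptake, with 175 probe sets of 62 genes. Of these, 111 (63.4%) were detected on every array and 17 on none. At an unadjusted exact p under 0.05, 13 (7.43%) were detected on fewer cerebellum than rest-of-brain arrays, against 1.73% of all probe sets, and 1 (0.571%) on more, against 1.04%. After adjustment 0 passed. Between KO and WT 0 of the 175 passed the exact test, adjusted or unadjusted. The median difference between the parts was 0 arrays, as over all probe sets. The lists were chosen with results of these data known, so the counts are descriptions.

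**Figure D4:**
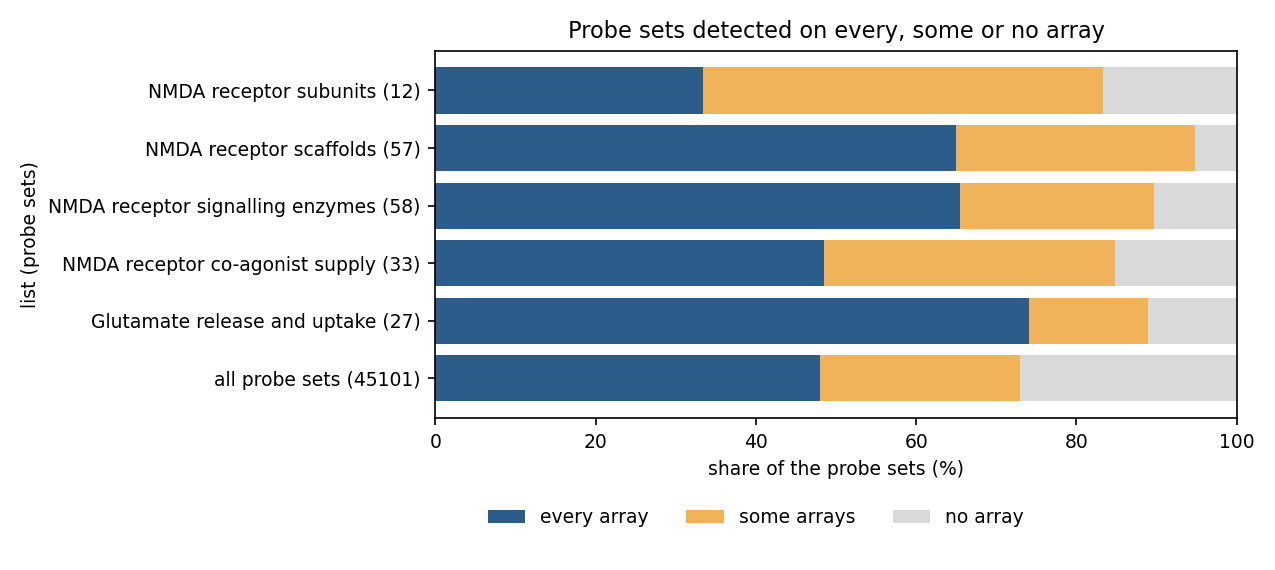
Share (x axis, %) of probe sets detected on every array, on some arrays or on no array, for the 12 NMDA receptor subunit probe sets, the 4 partner lists and all 45101 probe sets (rows, number of probe sets in brackets). Probe sets detected on every array make up 33.3% of the subunits, 48.5% to 74.1% of the partner lists and 48% of all.

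Scaffolds, the proteins that anchor the receptor in the postsynaptic density, had 57 probe sets of 21 genes. The PSD-95 family members Dlg1, Dlg2, Dlg3 and Dlg4 each had a probe set detected on all 16 arrays. Of the 57, 5 had an unadjusted exact p under 0.05, all with fewer cerebellum arrays, and 0 had it with more. Neto1 1425132_at (an auxiliary subunit of glutamate receptors), Homer1 1425710_a_at (which ties the density to metabotropic receptors) and Mpp2 1449173_at (a membrane-associated guanylate kinase) were detected on 0 of 8 cerebellum and 8 of 8 rest-of-brain arrays (Fisher's exact test p = 0.000155, adjusted p = 0.0501 each). Dlgap2 1439767_at, a PSD-95 binding protein, was detected on 1 of 8 cerebellum and 8 of 8 rest-of-brain arrays (exact p = 0.0014, adjusted p = 0.161), and Lin7b 1439239_at on 3 of 8 and 8 of 8 (exact p = 0.0256). As with Grin2b, 3 of the other 5 Homer1 probe sets, 1 of the other 2 of Neto1 and all 3 others of Lin7b were detected on every array, while Mpp2 and Dlgap2 had no other probe set.

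Signalling enzymes, which act on or downstream of the receptor, had 58 probe sets of 18 genes. The synaptic nitric oxide synthase Nos1, the kinases Fyn and Src and the calcineurin subunit Ppp3ca each had a probe set detected on all arrays. Camk2a, the alpha subunit of the plasticity kinase CaMKII, had a probe set, 1442707_at, on 0 of 8 cerebellum and 8 of 8 rest-of-brain arrays (exact p = 0.000155, adjusted p = 0.0501), and another, 1437125_at, on 2 of 8 and 8 of 8 (exact p = 0.00699). Of the other 4 Camk2a probe sets, 1457311_at was detected on all arrays of both parts, 1443876_at on 7 of 8 cerebellum and 8 of 8 rest-of-brain arrays, 1452453_a_at on 0 of 8 and 4 of 8, and 1441734_at on none. The phosphatase Ptpn5 (STEP), which removes activating phosphates from Grin2b and Fyn, had 3 probe sets. Its 1425130_a_at and 1425131_at were each detected on 1 of 8 cerebellum and 8 of 8 rest-of-brain arrays (exact p = 0.0014, adjusted p = 0.161), and 1423544_at on 8 of 8 and 8 of 8. Rasgrf2 1440918_at, a calcium-activated Ras exchange factor, had the counts of Grin2b, 0 of 8 and 7 of 8, with another Rasgrf2 probe set on every array and another on none. Camk2d 1460630_at, for the delta subunit of CaMKII, ran the other way, on 8 of 8 cerebellum and 2 of 8 rest-of-brain arrays (exact p = 0.00699, adjusted p = 0.476), and 4 of the other 6 Camk2d probe sets were on every array.

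Co-agonist supply, the synthesis and transport of glycine and D-serine, had 33 probe sets of 13 genes, of which 1 had an unadjusted exact p under 0.05 and 0 passed after adjustment. Srr 1438550_x_at, for serine racemase, was detected on 2 of 8 cerebellum and 8 of 8 rest-of-brain arrays (exact p = 0.00699, adjusted p = 0.476), while 3 of the 5 other Srr probe sets were detected on every array. Slc6a9 (the glycine transporter GlyT1), Phgdh and Shmt2 (serine and glycine synthesis) each had a probe set on all 16. Glutamate release and uptake had 27 probe sets of 10 genes. The vesicular transporters Slc17a6 and Slc17a7 and the glial transporters Slc1a2 and Slc1a3 each had a probe set on all arrays. The neuronal transporter Slc1a1 1460386_a_at was detected on 0 of 8 cerebellum and 8 of 8 rest-of-brain arrays (exact p = 0.000155, adjusted p = 0.0501), with both other Slc1a1 probe sets on every array, and Slc1a2 1451627_a_at on 2 of 8 and 8 of 8 (exact p = 0.00699), with 2 of the other 4 Slc1a2 probe sets on every array.

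The partner counts were also taken without the 2 arrays nearest to the other part. Of the 13 probe sets with fewer cerebellum arrays, 7 were detected on some cerebellum array, and all 7 were detected on WT female 2. Dlgap2 1439767_at and 2 of the 3 Ptpn5 probe sets, 1425130_a_at and 1425131_at, were detected in the cerebellum on that array alone. Without it, 8 of the 14 partner probe sets had an adjusted p of 0.0273 in the exact test (Neto1, Homer1, Mpp2, Dlgap2, Camk2a 1442707_at, Slc1a1 and these 2 of Ptpn5), as part of 257 probe sets that passed on the whole array. Grin2b 1422223_at, undetected on that array, then had an adjusted p of 0.11. Without the rest-of-brain array KO female 1, 5 of the 14 partner probe sets passed (adjusted p = 0.0464 in the exact test), as did Grin2b 1422223_at, among 151 of all probe sets. These 5 were on 0 of 8 cerebellum and 8 of 8 rest-of-brain arrays before, at an adjusted exact p of 0.0501. Leaving out any 1 array let 144 to 257 of all probe sets pass, and these 5 passed without either of the arrays named here. Dlgap2 and the 2 Ptpn5 probe sets did not pass without KO female 1 (adjusted p = 0.141 in the exact test). Grin2b 1422223_at passed only when KO female 1, the rest-of-brain array that did not detect it, was left out. Without both arrays 0 of all probe sets passed, since 7 against 7 arrays give an exact p of 0.000583 at the lowest, and Grin2b 1422223_at, on 0 of 7 cerebellum and 7 of 7 rest-of-brain arrays, had an adjusted p of 0.0925. Camk2a is also on the list of cortex and hippocampus markers, whose shares differed between the parts as given above, and the part of cell makeup in these counts was not tested.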

How the data were processed

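RNA of 16 mouse brain samples was amplified with a 3' IVT kit and hybridised to Affymetrix arrays. A human array is named in the methods, but the probe sets bear mouse array names. MAS5 in Expression Console was used by the authors per their methods and the processing notes of the submission, and RMA per their results text. The deposited values are detection scores, 5 distinct numbers with no intensities, read here as levels 2 (detected), 1 (marginal), 0, -1 and -2. The study's ANOVA could not be fitted to them.

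Groups came from the sample titles. Gene names came from the platform annotation, in which 34958 probe sets had 1 symbol, 932 several and 9211 none. Each of 45101 probe sets was tested with Fisher's exact test (two-sided) on detected arrays, with Benjamini-Hochberg adjustment over all of them, at 0.05. Compared were brain part, genotype, genotype within each part, and sex. Named were all members, partner probe sets with an unadjusted p under 0.05 between the parts, up to 4 partner genes per list detected on every array, and up to 5 probe sets most alike to each member detected on 3 to 13 arrays. The probe sets assigned to Grin1 and Grin2a by the study's lists, and the record kinds, were added after their values were seen. Members, lists and tests were chosen with earlier results of these data known. Alternatives changed the detection level, the sign of the level, the probe sets tested, the unit, the pairing and the arrays. The methods call the 2 arrays of a group independent specimens. The only measure of depth is the number of probe sets detected per array, and precision is limited by how many arrays there are. Scripts were tested on simulated data. Calculations used Python 3.11.15, pandas 2.3.3 and numpy 2.4.6, and figures matplotlib 3.10.9. Intensities and fold changes were not analysed here, and no probe sequence was used.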

Additional observations from a re-analysis of the deposited data

Results flagged for a closer look

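Of the calls, 3 lay apart from the other arrays of their brain part, among 28 sets of 8 arrays examined with Dixon's criterion (critical value 0.526). Grin2b 1442370_at was at level 1 on the cerebellum array WT male 1 and at level 2 on the other 7. Grin2a 1421616_at was at level 2 on the rest-of-brain array KO female 2 and at level 0 on the other 7. Grin2b 1422223_at was at level 1 on the rest-of-brain array KO female 1 and at level 2 on the other 7. With whole-number levels, any single departing call meets the criterion, and a set at 1 level on all 8 arrays cannot be flagged. The criterion's nominal rate of 1 in 20 therefore does not apply to these calls. No subunit probe set had opposite genotype differences in females and males on every array.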

How the results depend on the processing

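Between the brain parts, 0 subunit probe sets passed the adjusted test, and 1, Grin2b 1422223_at, passed when only the 3873 probe sets able to reach an exact p under 0.05 were adjusted for (662 passed in all). It was also 1 when the marginal level counted as detected in that set, an alternative chosen after seeing the data (641 in all, adjusted p for Grin2b 0.00445). The count stayed 0 with marginal calls counted as detected (Grin2b adjusted p = 0.0501 in the exact test), with the sign of the level ignored, and with genes in place of probe sets (61 genes passed in all). It was also 0 in male, KO or WT arrays alone. There 4 against 4 arrays give an exact p of 0.0286 at the lowest, and 0 of all probe sets passed. Those subsets could thus not decide whether a subunit differed. Leaving out each array in turn gave 0 to 1, with 1 only without the rest-of-brain array KO female 1 (exact test, adjusted p = 0.0464), while 144 to 257 of all probe sets passed. Without both KO female 1 and the cerebellum array WT female 2, an alternative chosen after seeing the data, the count was 0 and the smallest adjusted p 0.0925 (exact test). In the other 4 comparisons the count was 0 under every alternative run. The adjusted p of Grin2b 1422223_at ran between 0.00445 and 1 over all of these.

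Deviations of same-numbered arrays correlated at -0.0181 to 0.0434 between the parts, -0.00464 to 0.0647 between genotypes and -0.0174 to 0.06 between sexes. Whether equally numbered arrays of both parts came from the same animal could not be decided from these values. Thresholded calls from so few arrays per group could hide such pairing. With the replicate block, 0 subunit probe sets passed in any comparison, and Grin2b 1422223_at had an exact sign-permutation p of 0.0156 (adjusted p = 1). With 8 pairs that test gives 0.0078 at the lowest, and between the parts 0 of all probe sets passed it after adjustment. The block could thus not decide whether a subunit differed.

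A call is a threshold on a signal not available here, so a probe set near the threshold can switch with a small change, and differences above it are not seen. With 2 arrays a group, genotype within sex and part could not be tested. A count of 0 under this test does not show equal levels.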
